A study of Mus musculus with 4 samples.

Results

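The proteasome genes were taken as all genes of the deposited table whose symbol starts with Psma, Psmb, Psmc, Psmd, Psme, Psmf or Psmg followed by a number, which gave 50 of 24391 genes. They comprised 31 standard subunits of the core and the regulatory particle, 3 immune subunits (Psmb8, Psmb9 and Psmb10), 12 accessory factors, the tissue-restricted subunits Psma8 and Psmb11, the retrocopy Psme2b, and Psmc3ip, which carries the name but encodes a recombination factor and no proteasome subunit. Levels were measured by RNA-Seq in Beko cells, a mouse progenitor T-cell line in which Notch signaling is constitutively active. In 2 libraries the cells had been kept for 48 h in the γ-secretase inhibitor (GSI) DAPT, which blocks Notch processing. In the other 2 libraries the cells had received the same 48 h of GSI and were then washed and cultured for 24 h without it (washout). The labels give the dose of DAPT as 10 mg/ml, whereas the published methods give the unit as μg/ml. All cells came from a single line, and no library of cells cultured for the same total time with the inhibitor, or washed without having received it, was analysed here, so that loss of the inhibitor, the wash and the longer culture cannot be told apart. Nothing in the labels says that replicates were separate cultures, so p-values measure the spread between these libraries, which may be technical.

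The proteasome degrades proteins tagged with ubiquitin. Its barrel-shaped core, the 20S particle, is built from outer α rings, which form the gate, and inner β rings, which hold the proteolytic sites. A cap, the 19S regulatory particle, binds ubiquitin chains, removes them and unfolds the substrate with a ring of ATPases. In lymphoid cells and upon interferon the proteolytic β subunits can be replaced during assembly by the immune subunits, which changes the peptides offered to MHC class I molecules. Notch signaling itself is turned over by this machinery, since the cleaved receptor is degraded by the proteasome.

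The reads counted on genes came to between 13716199 and 36364200 per library. All 10 markers of progenitor T-cells were detected, with a summed level of 5616 to 6140 CPM (read counts scaled to library size with TMM factors). Of the B-cell markers, 4 of 6 had 3 counts or fewer in every library. The mast cell list summed to 274 and 167 CPM in GSI and to 45.7 and 30.5 CPM upon washout. Of this list Cpa3 was at 176 and 77.4 CPM with the inhibitor and at 9.34 and 2.23 CPM after its removal, and Fcer1a, Mcpt4 and Cma1 had 3 counts or fewer in every library. The myeloid list went from 49.2 and 38.2 to 5.49 and 4.91 CPM, most of it Itgam, while Lyz2, Cd14 and Elane had 3 counts or fewer throughout. The dendritic cell list stayed between 2.41 and 3.84 CPM and the erythroid list between 0.521 and 1.41 CPM. The part of these cell programs in the results below was not tested. In such bulk libraries, fewer cells of a type and less RNA per cell cannot be told apart.

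Standard proteasome subunits were upregulated together upon GSI washout. Of the 31 standard subunits, 30 were higher at an adjusted p under 0.05 in edgeR's quasi-likelihood test, and none was lower, neither at this threshold nor at an unadjusted p under 0.05, nor in DESeq2, which also found 30 higher. Among all 12266 genes tested, 27.0% were higher and 25.4% lower by the same rule (3315 and 3120 genes). With total-count scaling the split over all genes was 2315 higher and 4250 lower, and 28 standard subunits were still upregulated. The log2 fold change of the standard subunits had a median of 0.77 (1.71-fold), compared with -0.01 over all genes tested. It ranged from 0.06 (Psmd8) to 1.08 (Psmd7). In both washout libraries the level lay above both GSI libraries for 30 standard subunits, a pattern seen for 38.2% of all genes tested. Their summed level was 3786 and 3804 CPM in GSI compared with 6229 and 6073 upon washout. Thus 0.408% and 0.405% of all counted reads fell on these genes in GSI and 0.583% and 0.565% upon washout. The replicates lay close together. For the standard subunits the median absolute log2 difference between replicates was 0.046 in GSI and 0.072 upon washout, with the largest differences at Psmb3 (0.23, GSI) and Psmd14 (0.27, washout). With the threshold of the study on the size of the change (log2 fold change above 1 as well as the adjusted p-value), 1 standard subunit passed, against 7.74% of all genes tested in this direction, and 11.7% passed in the other.

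**Figure D1:**
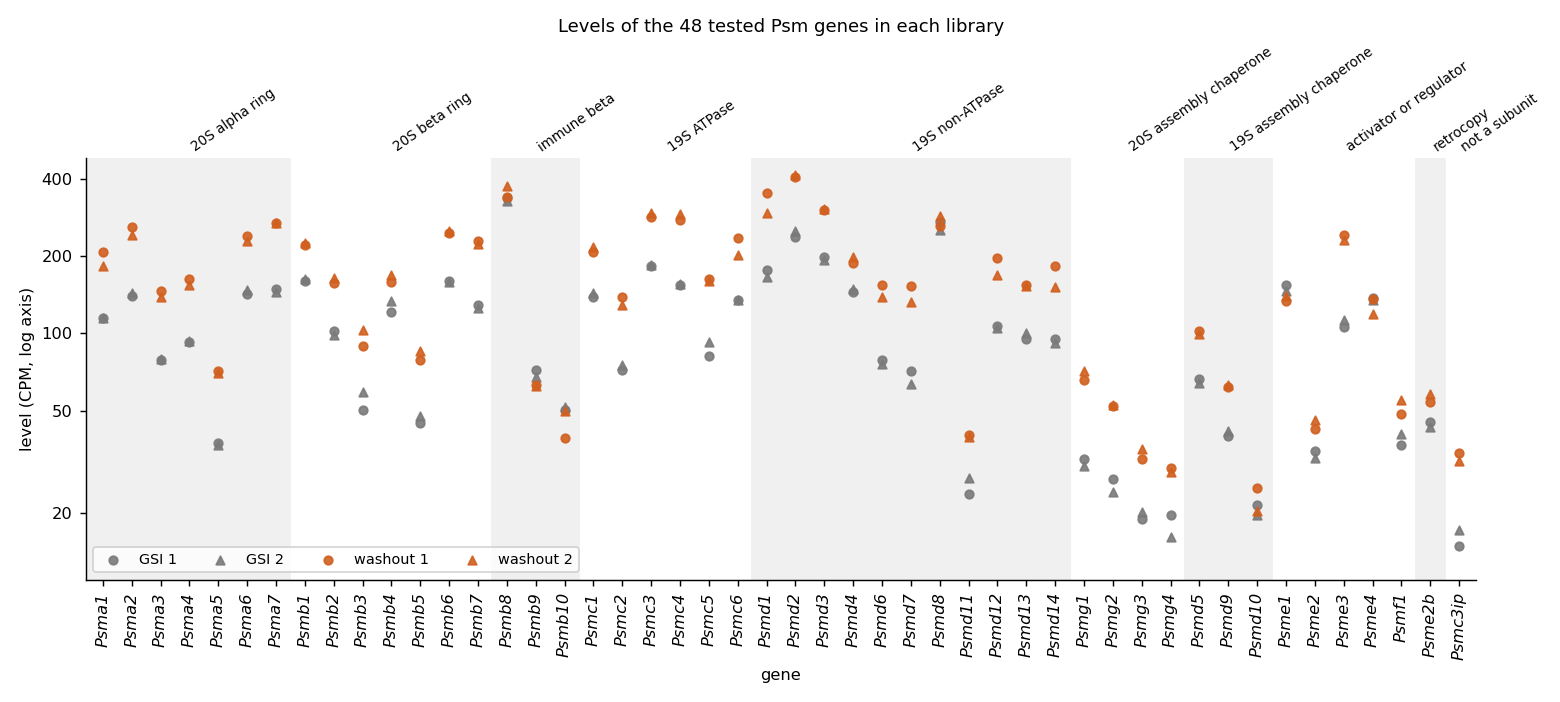
Level of each of the 48 tested Psm genes (vertical axis, CPM on a log axis) in the GSI libraries (gray) and the washout libraries (orange), with replicate 1 as circles and replicate 2 as triangles, ordered by role. For 30 of the 31 standard subunits both washout libraries lay above both GSI libraries, whereas those of Psmd8 overlapped.

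The α ring subunits form the gate of the core and rose in a narrow band. All 7 were upregulated, against 27.0% of all genes tested. Their log2 fold changes lay between 0.70 (Psma6) and 0.93 (Psma5), with a median of 0.82. Psma5 had 37.4 and 36.7 CPM in GSI compared with 71.1 and 70.3 upon washout (log2 fold change 0.93, standard error 0.0914, adjusted p = 0.000649 in edgeR). This was a 1.91-fold rise, with replicates almost on top of each other. Psma6, the most abundant of the ring per kilobase of exon, had 142 and 147 CPM in GSI compared with 239 and 229 upon washout. Psma7, which rose by 0.87 on the log2 scale, was the most abundant when the longest annotated transcript was used as the length in place of all exons, at 161 CPM per kilobase in GSI and 294 upon washout. Psma4 and Psma5 overlap a gene on the other strand with their exons, and the strand setting of the counting is not given in the sources used here.

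The β ring subunits rose as well, but over a wider range. All 7 standard members were upregulated, against 27.0% of all genes tested, with a median log2 fold change of 0.67. Psmb5, Psmb6 and Psmb7 carry the proteolytic sites. Psmb5, the chymotrypsin-like subunit, lies on chromosome 14 from 55232644 to 55236851 (mm9). Its level was 44.9 and 47.5 CPM in GSI compared with 78.8 and 85.0 upon washout (log2 fold change 0.83, standard error 0.0967, adjusted p = 0.00108 in edgeR). Psmb7, the trypsin-like subunit on chromosome 2 from 38443556 to 38499607, went from 129 and 125 to 228 and 223 CPM (log2 fold change 0.82). Psmb6, the caspase-like subunit on chromosome 11 from 70338869 to 70341360, went from 159.7 and 158 to 246 and 251 CPM (log2 fold change 0.65). In each of the 3 genes the conditions were separated by far more than the replicates. The subunits without a proteolytic site held both the smallest and some of the larger changes of the ring. Psmb4 had 121 and 133 CPM in GSI compared with 159 and 168 upon washout (log2 fold change 0.36, standard error 0.0976, adjusted p = 0.0215 in edgeR). Psmb1, the most abundant standard β subunit per kilobase of exon, rose by 0.47. Psmb2 (0.67) and Psmb3 (0.82) lay higher. The call of Psmb4 was lost with total-count scaling (log2 fold change 0.16, adjusted p = 0.184 in edgeR) and without GSI replicate 1 (0.29, adjusted p = 0.169) or GSI replicate 2 (0.44, adjusted p = 0.0554). That of Psmb1 was lost without GSI replicate 1 (0.45, adjusted p = 0.0593). The annotation also holds pseudogenes named after Psmb5, Psmb6 and Psmb7, so the split of reads between these genes and their copies is uncertain. Exons of Psmb7, Psmb8, Psmb9, Psmc3, Psmc3ip, Psmd1, Psmd3, Psmd13 and Psme1 also overlap a gene on the other strand, and on the same strand those of Psmd1 overlap Armc9 and those of Psmb5 overlap Mir686.

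The ATPases of the 19S base, which unfold substrates and feed them into the core, rose to a similar extent. All 6 were upregulated, against 27.0% of all genes tested, from Psmc1 (0.59) to Psmc5 (0.89), with a median of 0.78. Psmc5 had 81.4 and 92.3 CPM in GSI compared with 162 and 159.7 upon washout (standard error of the log2 fold change 0.101, adjusted p = 0.000982 in edgeR). Psmc1, the most abundant ATPase per kilobase of exon, went from 139 and 143 to 208 and 216 CPM. Both washout libraries lay above both GSI libraries for all 6 genes, against 38.2% of all genes tested. Psmc4 rose by 0.87, Psmc2 by 0.87, Psmc6 by 0.69 and Psmc3 by 0.66.

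Among the 11 non-ATPase subunits of the 19S particle, 10 were upregulated, against 27.0% of all genes tested. The largest change of any standard subunit was that of Psmd7, a scaffold of the lid that pairs with the deubiquitinase Psmd14. Psmd7 (chromosome 8, 110104281 to 110112382) had 71.3 and 63.2 CPM in GSI compared with 153 and 132 upon washout (log2 fold change 1.08, standard error 0.116, adjusted p = 0.000819 in edgeR). It was the only standard subunit past the fold threshold, and with total-count scaling or without washout replicate 1 no standard subunit was past it, whereas 3 were without washout replicate 2. Psmd14, which removes ubiquitin from substrates, rose by 0.84, from 95.4 and 91.4 to 183 and 152 CPM. Here the washout replicates differed more than those of GSI, but both lay above GSI. The large scaffolds of the base, Psmd1 and Psmd2, rose by 0.91 and 0.75. Psmd2 had 237 and 249 CPM in GSI compared with 406 and 412 upon washout. Psmd6 (0.91), Psmd12 (0.79), Psmd13 (0.66), Psmd11 (0.65) and Psmd3 (0.63) are further lid subunits, and all of them rose. Psmd11, a lid subunit linked to the assembly of the complete particle, was the least abundant standard subunit per kilobase of exon, at 3.98 CPM per kilobase in GSI and 6.22 upon washout. Psmd4, a ubiquitin receptor, showed a smaller change, with 145 and 149 CPM in GSI compared with 188 and 198 upon washout (log2 fold change 0.39, standard error 0.0913, adjusted p = 0.0129 in edgeR). Its call was lost with total-count scaling (0.19, adjusted p = 0.111 in edgeR) and without GSI replicate 1 (0.37, adjusted p = 0.0992) or GSI replicate 2 (0.42, adjusted p = 0.0679).

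Psmd8 was the exception among the standard subunits. This lid subunit (chromosome 7, 29959207 to 29965692) had 271 and 253 CPM in GSI compared with 261 and 286 upon washout, so that the libraries of the conditions overlapped. Its log2 fold change was 0.06 (standard error 0.104, adjusted p = 0.658 in edgeR), with a 95% interval from -0.19 to 0.31. For 27 of the other 30 standard subunits the interval began above the end of that of Psmd8, the remainder being Psmb1, Psmb4 and Psmd4. In GSI, Psmd8 had the highest level per kilobase of exon of all standard subunits, 173 CPM per kilobase, and upon washout it had 181, below Psmb1 (215), Psma6 (189.7) and Psmb7 (186). With the longest transcript as the length, Psmb6 was highest in both conditions, at 199 and 312 CPM per kilobase.

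**Figure D2:**
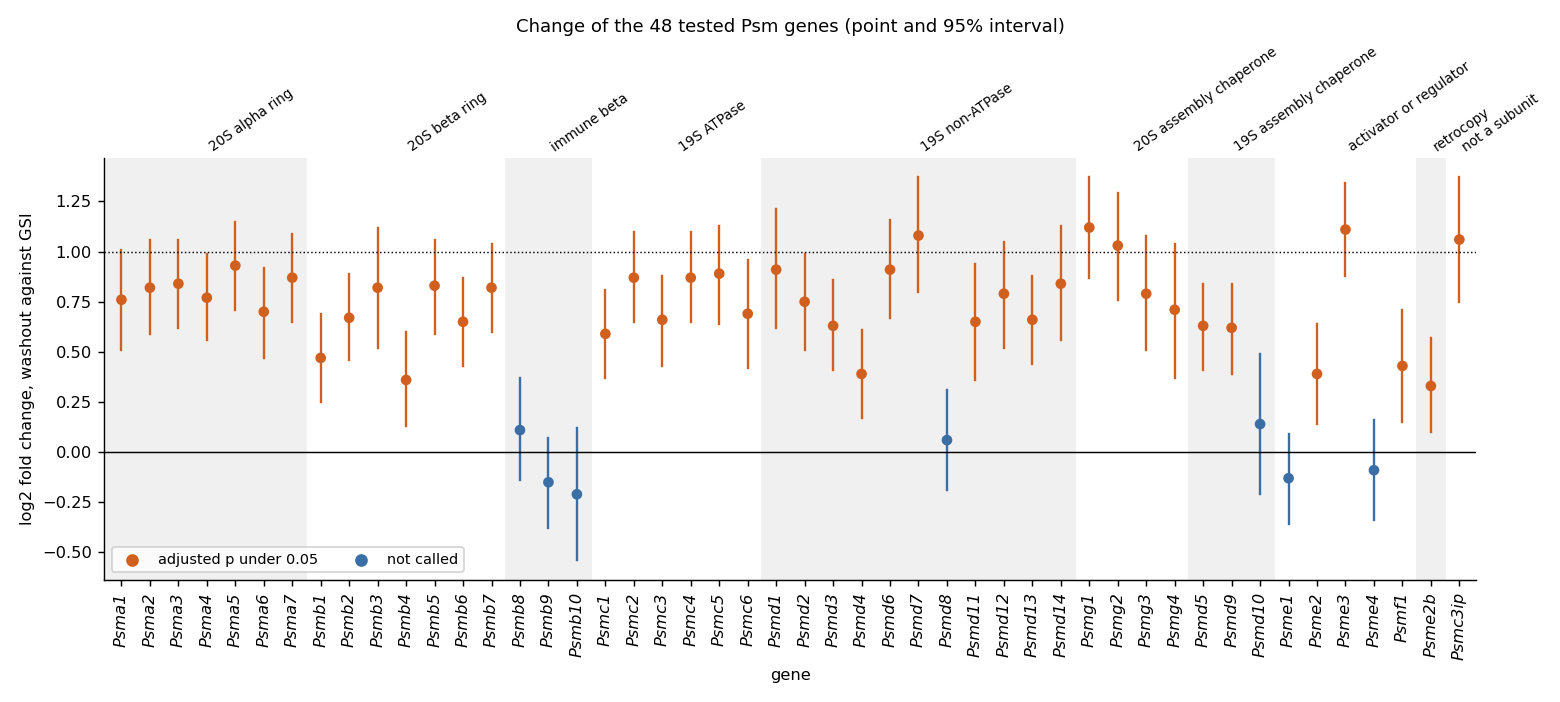
Log2 fold change upon washout (vertical axis) of the 48 tested Psm genes, with the 95% interval from edgeR as a line and the log2 fold change of 1 as a dotted line. Upregulated genes (adjusted p under 0.05) are orange. The 7 genes not called (blue) were Psmb8, Psmb9, Psmb10, Psmd8, Psmd10, Psme1 and Psme4, with log2 fold changes between -0.21 and 0.14.

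The immune subunits were not upregulated with their standard counterparts. None of the 3 was called in either direction by edgeR or by DESeq2, and none had an unadjusted p under 0.05 in edgeR. Their summed level was 457 and 445 CPM in GSI, compared with 442 and 487 upon washout. The libraries of the conditions did not overlap, Psmb8 being higher and Psmb9 and Psmb10 lower upon washout, where 38.2% and 39.1% of all genes tested had libraries apart in these directions. The promoters of the pairs are shown here because their standard and immune members had different values upon washout, and because the inhibitor blocks formation of the Notch fragment that acts on DNA through RBPJ. The RefSeq promoters (GRCm38.p6) cover 42 of the 50 genes. Below are the 250 bases before the start of each immune gene and of the 2 partners in that table, read 5′ to 3′ along the gene, with capitals marking matches to the RBPJ motif TGGGAA in either orientation. No entry was found for Psmb7.
Psmb8 (chr17:34197945-34198194, plus strand): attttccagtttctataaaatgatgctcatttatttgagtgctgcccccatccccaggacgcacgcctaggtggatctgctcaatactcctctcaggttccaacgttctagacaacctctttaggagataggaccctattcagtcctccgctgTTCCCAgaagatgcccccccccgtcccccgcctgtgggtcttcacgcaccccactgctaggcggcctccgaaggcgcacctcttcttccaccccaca
Psmb9 (chr17:34187331-34187580, minus strand): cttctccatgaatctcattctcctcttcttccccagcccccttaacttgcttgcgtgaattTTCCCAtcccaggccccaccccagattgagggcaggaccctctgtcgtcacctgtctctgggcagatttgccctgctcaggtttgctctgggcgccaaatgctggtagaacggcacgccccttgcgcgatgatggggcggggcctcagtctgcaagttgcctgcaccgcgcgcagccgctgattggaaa
Psmb10 (chr8:105938393-105938642, minus strand): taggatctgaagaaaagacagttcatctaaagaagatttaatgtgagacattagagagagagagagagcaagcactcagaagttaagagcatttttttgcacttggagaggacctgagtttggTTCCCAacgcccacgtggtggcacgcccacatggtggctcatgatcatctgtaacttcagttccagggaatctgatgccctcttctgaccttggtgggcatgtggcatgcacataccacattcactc
Psmb5 (chr14:54617996-54618245, minus strand): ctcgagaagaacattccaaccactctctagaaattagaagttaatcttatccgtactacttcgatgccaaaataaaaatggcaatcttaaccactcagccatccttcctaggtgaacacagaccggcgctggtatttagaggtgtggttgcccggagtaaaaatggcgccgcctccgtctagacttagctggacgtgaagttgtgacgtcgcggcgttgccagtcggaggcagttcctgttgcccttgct
Psmb6 (chr11:70525107-70525356, plus strand): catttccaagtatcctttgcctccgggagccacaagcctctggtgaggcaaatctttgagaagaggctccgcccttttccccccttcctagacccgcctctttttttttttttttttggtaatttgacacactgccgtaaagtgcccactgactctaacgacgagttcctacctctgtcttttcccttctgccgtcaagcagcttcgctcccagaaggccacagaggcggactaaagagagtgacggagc

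Each of the 3 immune promoters held 1 match, in every case on the strand opposite to the gene (read as TTCCCA), beginning 97 bases before the start in Psmb8, 189 in Psmb9 and 127 in Psmb10. Neither Psmb5 nor Psmb6 held a match. In windows from 250 bases before to 50 bases after the start, the motif was found in 4 of the 25 standard subunits with an entry (Psma1, Psmc4, Psmd2 and Psmd14), in 5 of 11 accessory factors and in 25.6% of all 32851 promoters. The letters CCGGAAG, a core bound by ETS factors, were found in 10 of the 25 standard genes, in none of the immune genes, in 4 of 11 accessory factors and in 8.86% of all promoters. For CCAAT (NF-Y) the numbers were 10 of 25, 1 of 3, 2 of 11 and 37.4%, and for the E-box CACGTG 1 of 25, 1 of 3, 2 of 11 and 7.15%. The antioxidant-type motif TGACNNNGC, to which Nfe2l1 and Nfe2l2 bind, was present in 4 of 25 standard genes, in none of the immune genes, in 2 of 11 accessory factors and in 12.4% of all promoters. A motif of interferon regulatory factors, GAAA repeated with 2 bases between, was present in 2 of 25 standard genes, in none of the immune genes, in 3 of 11 accessory factors (Psmd9, Psme1 and Psmg4) and in 3.44% of all promoters. Both strands were searched without setting repeats apart, and no motif of this set contains another. A Psm gene was counted when any of its promoters matched, whereas the share over all promoters counts each promoter singly. These matches describe letters within short windows and were not tested as binding sites. In the published study of these cells, RBPJ sites whose binding was unaffected by GSI lay mostly close to transcription starts. Expression of the genes assigned to those sites barely changed with the inhibitor. Sites that lost RBPJ binding lay preferentially within or between genes, away from the starts. Most of the sites that lost binding held the RBPJ motif, in the form TGRGAA (R for either purine). SP motifs were found preferentially at the unaffected sites. The form TGAGAA was not searched here, and whether RBPJ binds the promoters shown above was not tested.

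Psmb8, the immune counterpart of Psmb5, lies in the MHC region on chromosome 17 from 34334666 to 34338399. It had 335 and 326 CPM in GSI compared with 339.9 and 375 upon washout. Although both washout libraries were above GSI, the log2 fold change of 0.11 was close to its standard error of 0.105 (adjusted p = 0.396 in edgeR, 95% interval -0.14 to 0.37). Psmb9, the counterpart of Psmb6, lies on the same chromosome from 34318932 to 34324709, and an exon overlaps Tap1 on the other strand. It had 72.0 and 67.4 CPM in GSI compared with 62.9 and 62.4 upon washout (log2 fold change -0.15, standard error 0.0915, adjusted p = 0.201 in edgeR, 95% interval -0.38 to 0.07). Psmb10, the counterpart of Psmb7, lies on chromosome 8 from 108459628 to 108462292. With 50.5 and 51.5 CPM in GSI compared with 39.0 and 49.7 upon washout, the washout replicates differed (log2 fold change -0.21, standard error 0.136, adjusted p = 0.240 in edgeR, 95% interval -0.54 to 0.12). When washout replicate 2 was left out, Psmb10 was at -0.37 (adjusted p = 0.0395 in edgeR). The upper end of each of these intervals lay below the median of the standard subunits. The directions of the immune subunits depended on the settings. With total-count scaling, which moved the median of all genes tested to -0.21, the log2 fold changes of Psmb8, Psmb9 and Psmb10 were -0.09, -0.35 and -0.41, the latter 2 with adjusted p-values of 0.0202 and 0.0418 in edgeR. With offsets for GC content and exon length they were 0.26, 0.02 and -0.04, and Psmb8 had an adjusted p of 0.0296. The exons of the immune genes contain between 53.9% and 56.5% GC, and those of the standard subunits between 36.2% and 55.9%, with a median of 49.5%.

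Because an immune subunit replaces a defined partner, the ratio within a library shows the balance of the pair without any scaling between libraries. The ratio does not remove an effect of GC content or length that differs between libraries. The count of Psmb8 was 7.46 and 6.86 times that of Psmb5 in GSI and 4.32 and 4.42 times upon washout. On the log2 scale the ratio was 2.84 ± 0.0861 in GSI and 2.13 ± 0.0235 upon washout (SD, n = 2), a difference of -0.71. For Psmb9 over Psmb6 the ratio was 0.451 and 0.427 in GSI and 0.256 and 0.248 upon washout, a difference of -0.80 on the log2 scale. Psmb10 over Psmb7 gave 0.391 and 0.410 in GSI and 0.171 and 0.223 upon washout, a difference of -1.04. In all 3 pairs both washout libraries had lower ratios than both GSI libraries, by 1.64, 1.74 and 2.05 times. With 2 libraries against 2, the exact permutation test (two-sided) gave p = 0.333 for each pair, also after adjustment over the 3 pairs, which is the smallest value that this design allows. Leaving out 1 library at a time, the differences were between -0.77 and -0.65 for Psmb8, between -0.84 and -0.76 for Psmb9 and between -1.23 and -0.84 for Psmb10. With offsets for GC content and exon length, the log2 fold changes were 0.26 for Psmb8 and 0.91 for Psmb5. They were 0.02 for Psmb9 and 0.65 for Psmb6, and -0.04 for Psmb10 and 0.67 for Psmb7. Per kilobase of exon, Psmb8 was 2.52 and 2.31 times as abundant as Psmb5 in GSI and 1.45 and 1.49 times upon washout, whereas Psmb9 stayed below Psmb6 (0.127 to 0.231) and Psmb10 below Psmb7 (0.164 to 0.392) in every library. The same order was seen with the longest transcript as the length.

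**Figure D3:**
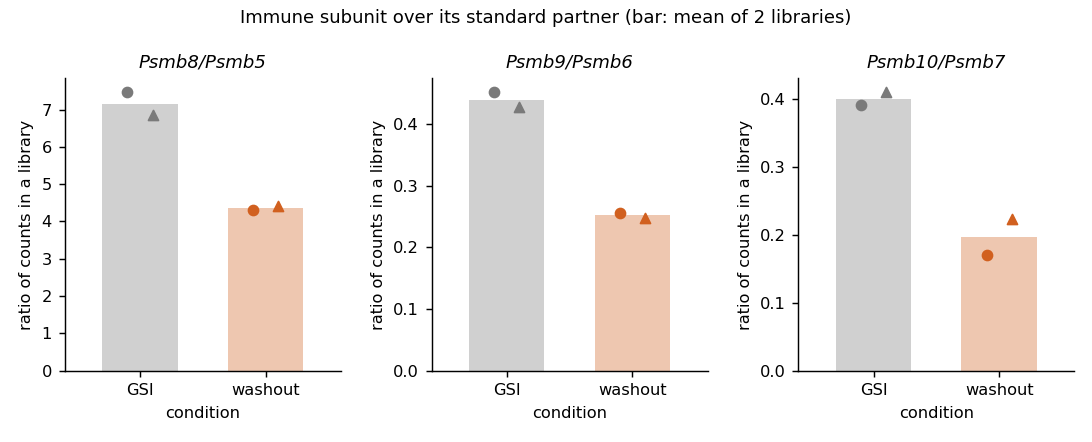
Ratio of the counts of each immune subunit to its standard partner (vertical axis, starting at 0) in GSI (gray) and upon washout (orange), with replicate 1 as a circle, replicate 2 as a triangle and the mean of the 2 libraries as a bar. In each pair both washout libraries lie below both GSI libraries, from 7.46 and 6.86 to 4.32 and 4.42 for Psmb8 over Psmb5.

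Accessory factors were upregulated in part, including all assembly factors of the core. Of the 12 accessory factors 9 were upregulated and none was downregulated, also at an unadjusted p under 0.05 and in DESeq2, against 27.0% and 25.4% of all genes tested, and their median log2 fold change was 0.62. All 4 chaperones that help to build the 20S particle rose. Psmg1, which pairs with Psmg2 to guide the formation of the α ring, had 32.3 and 30.5 CPM in GSI compared with 65.6 and 71.5 upon washout (log2 fold change 1.12, standard error 0.102, adjusted p = 0.000548 in edgeR). Psmg2 rose by 1.03, from 27.2 and 24.1 to 52.2 and 52.5 CPM. Both members of this dimer were past the fold threshold, but with total-count scaling (0.92 and 0.83) and with the offsets for GC content and exon length (0.98 and 0.85) they were below it. Psmg3 and Psmg4, which form the other chaperone dimer, rose by 0.79 and 0.71, and Psmg4 was the most abundant of the 4 per kilobase of exon (32.3 CPM per kilobase in GSI). Of the chaperones of the 19S base, Psmd5 (0.63), the most abundant of them per kilobase, and Psmd9 (0.62) rose. Psmd10, also known as gankyrin, had 21.5 and 19.7 CPM in GSI compared with 24.9 and 20.4 upon washout, and its log2 fold change of 0.14 did not exceed its standard error of 0.145 (adjusted p = 0.448 in edgeR).

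The activators open the core in place of the 19S cap. Of the 5 activators and regulators 3 were upregulated and none was downregulated, against 27.0% and 25.4% of all genes tested. Psme3 (PA28γ), a nuclear activator, had 106 and 113 CPM in GSI compared with 242 and 230.4 upon washout (log2 fold change 1.11, standard error 0.0953, adjusted p = 0.000469 in edgeR), which was 0.91 with total-count scaling. Psme1 and Psme2 encode PA28α and PA28β, which work together and are induced by interferon like the immune subunits, Psme1 being the most abundant activator per kilobase of exon in GSI. Psme1 had 154 and 146 CPM in GSI compared with 133 and 140.1 upon washout (log2 fold change -0.13, standard error 0.0919, adjusted p = 0.266 in edgeR, 95% interval -0.36 to 0.09). Its value was -0.33 with total-count scaling (adjusted p = 0.0241) and 0.12 with offsets for GC content and exon length. Psme2 had 34.7 and 32.7 CPM in GSI compared with 42.6 and 45.8 upon washout (log2 fold change 0.39, standard error 0.104, adjusted p = 0.0216 in edgeR). The call of Psme2 was lost with total-count scaling (adjusted p = 0.174 in edgeR) and without GSI replicate 1, GSI replicate 2 or washout replicate 2 (adjusted p of 0.0834, 0.120 and 0.0523). Psme2b, an intronless copy of Psme2, had a log2 fold change of 0.33 (adjusted p = 0.0295 in edgeR and 0.0619 in DESeq2). Its call was also lost with total-count scaling (0.286) and without GSI replicate 1 (0.111), GSI replicate 2 (0.155) or washout replicate 2 (0.0790), as adjusted p in edgeR, and as the copies can share reads, the values of both are uncertain. Psme4 (PA200), an activator found in the nucleus, had 137 and 135 CPM in GSI compared with 136 and 119 upon washout (log2 fold change -0.09, standard error 0.103, adjusted p = 0.505 in edgeR). Psmf1, a regulator that binds the core, went from 36.6 and 40.4 to 48.7 and 55.1 CPM (log2 fold change 0.43, adjusted p = 0.0203 in edgeR). Its call was lost with total-count scaling (0.23, adjusted p = 0.123 in edgeR) and without GSI replicate 1 (0.35, adjusted p = 0.140).

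The tissue-restricted subunits were at the limit of detection. Psma8, which replaces an α subunit in testis, had 0 and 0 counts in GSI and 2 and 0 counts upon washout. Psmb11, the β subunit of cortical thymic epithelium, had 7 and 2 counts in GSI and 2 and 1 counts upon washout. Neither was tested, and no fold change is given. A count of 3 corresponds to between 0.0881 and 0.223 CPM in these libraries, which covers counting error only. Psmc3ip, the recombination factor with a proteasome-like symbol, had 14.8 and 17.1 CPM in GSI compared with 34.2 and 31.8 upon washout (log2 fold change 1.06, standard error 0.129, adjusted p = 0.00123 in edgeR).

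**Figure D4:**
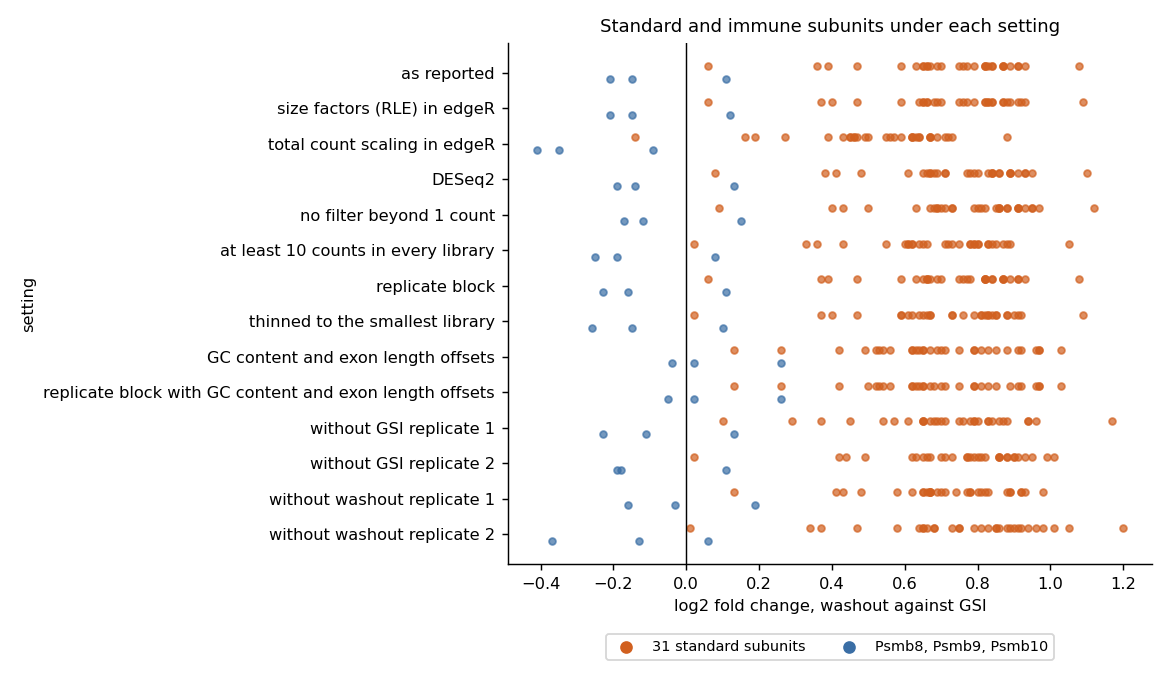
Log2 fold change upon washout (horizontal axis) of the 31 standard subunits (orange) and of Psmb8, Psmb9 and Psmb10 (blue) under the reported setting and each of the 13 alternatives. The immune subunits lie at or near the low end of the standard subunits, with Psmb8 at -0.09 under total-count scaling and at 0.26, the value of Psmb1, under the GC content and exon length offsets.

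Partners of the proteasome whose symbols do not start with Psm also rose in part. A list of 26 such genes found in the table covered further subunits, shuttles, deubiquitinases and transcriptional regulators. Of these, 16 were upregulated, against 27.0% of all genes tested, and none was downregulated in edgeR, with 1 lower at an unadjusted p under 0.05 and none lower in DESeq2, and the median log2 fold change was 0.38. Uchl5, a deubiquitinase that docks to the cap, had the largest change, from 35.9 and 40.0 to 96.9 and 73.2 CPM (log2 fold change 1.17, standard error 0.154, adjusted p = 0.00155 in edgeR). Usp14, the other cap-associated deubiquitinase of the list, went from 63.9 and 55.0 to 156 and 94.2 CPM, by 1.08. For both genes the washout replicates differed more than the GSI replicates. Txnl1, a thioredoxin-like protein bound to the cap, rose by 1.06. The core assembly factor Pomp (0.75), the ubiquitin receptor Adrm1 (0.68) and the small subunit Shfm1 (0.51), which are parts or builders of the particle, rose together with the Psm genes. The shuttle factor Rad23b (0.87) also rose, and so did the ubiquitin-activating enzyme Uba1 (0.44) and the unfoldase Vcp (0.37). Nfe2l1, a transcription factor that activates proteasome genes when the proteasome is inhibited, had 120.1 and 125 CPM in GSI compared with 97.1 and 107 upon washout (log2 fold change -0.26, standard error 0.0960, adjusted p = 0.0613 in edgeR). Ddi2, the protease that processes Nfe2l1, rose by 0.53. The polyubiquitin gene Ubb had a log2 fold change of 0.04 and was not called. The lowest value of the list was that of Ubqln2 (-0.32, adjusted p = 0.485 in edgeR), at only 1.56 to 2.74 CPM. With total-count scaling 9 of the 26 were upregulated and 2 downregulated, against 2315 and 4250 of all 12266 genes tested.

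Genes that act with the immune subunits in antigen presentation moved in both directions. In a list of 7 genes, 5 were downregulated and 2 upregulated, against 25.4% and 27.0% of all genes tested. The libraries of the conditions did not overlap for any of the 7, where 39.1% of all genes tested lay apart in the lower and 38.2% in the higher direction. Tap1 and Tap2, the peptide transporter next to Psmb9 and Psmb8, had log2 fold changes of -0.59 and -0.72 (adjusted p of 0.00271 and 0.00176 in edgeR). Tapbp, which links the transporter to MHC class I, fell from 179.7 and 146 to 67.0 and 64.7 CPM, with a log2 fold change of -1.31. Irf1, a transcription factor known to act on the immune subunit genes, had 144 and 160 CPM in GSI compared with 76.5 and 100 upon washout (log2 fold change -0.79, adjusted p = 0.00544 in edgeR). Nlrc5, the regulator of MHC class I genes, had the lowest log2 fold change, -2.54 (adjusted p = 0.0179 in edgeR), at levels of 4.97 and 2.40 CPM in GSI compared with 0.940 and 0.149 upon washout, the last resting on 2 counts. By contrast, B2m, the light chain of MHC class I, rose by 0.61.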

How the data were processed

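RNA-Seq was performed on total RNA of Beko cells with a stranded kit that depletes ribosomal RNA. The authors trimmed reads with trimGalore, mapped them to mm9 with HISAT2 2.2.1 keeping 1 alignment per read, and deposited raw counts per gene from summarizeOverlaps with the iGenomes annotation, neither normalized nor filtered. The strand setting and overlap mode are not given in the sources used here. Total counts per library and their precision are given with the results, and the groups and replicate numbers come from the sample titles.

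Counts of all genes were tested with edgeR 4.0.16 in R 4.3.3 (filterByExpr, TMM, estimateDisp, glmQLFit and glmQLFTest, no covariate) with Benjamini-Hochberg adjustment over the 12266 genes tested. Genes were called at an adjusted p under 0.05, and the study's additional threshold of 1 on the log2 fold change was applied separately. Standard errors were taken as the size of the log2 change over the root of its F statistic. CPM use the TMM-scaled library sizes. Positions, exon length and GC content come from GENCODE vM1 on the same build, which held 49 of the 50 genes (all but Psme2b). Alternatives were DESeq2 1.42.0, other scalings and filters, a replicate block, thinning to the smallest library, GC content and exon length offsets (mgcv 1.9.3), and leaving out each library. The scripts were tested on simulated data.

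The members and lists were chosen with earlier results of these data known. Named with values were the immune subunits and their partners, the extremes and the most abundant member of each role, members past both thresholds, members not called or not tested, members whose call changed with a setting, and the extremes of the partner lists. Some genes of these lists are not reported here by name.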

Additional observations from a re-analysis of the deposited data

How the results depend on the processing

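With all 4 libraries, the number of upregulated standard subunits was 30 in every alternative except total-count scaling (28), and 27 of the 31 were called in every one of the 13 alternatives. The median of the standard subunits was 0.57 with total-count scaling, 0.69 with GC content and exon length offsets and 0.68 with these offsets and the replicate block. Relative to the median of all genes tested it was 0.78 both with TMM factors and with total-count scaling, and 0.62 with the offsets. The first 2 values had to match, because a change of scaling shifts all genes by nearly the same amount. No standard subunit was past both thresholds with total-count scaling (0). Of the immune subunits, 2 were lower with total-count scaling, 1 (Psmb10) was lower with the replicate block, and 1 (Psmb8) was higher with the offsets, with (1) or without the block. Of the accessory factors, 1 (Psme1) was lower with total-count scaling. By this scaling 2315 of all 12266 genes tested were higher and 4250 lower. Of the partner genes, 9 were higher and 2 lower with total-count scaling, and 1 was lower with at least 10 counts in every library, with thinning, with the replicate block, and with the block and the offsets. Of the antigen presentation list, 1 gene was higher with the offsets.

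Directions changed for Psmd8 (-0.14), Psmb8 (-0.09) and Psmd10 (-0.06) with total-count scaling, and with the offsets for Psmb9 (0.02), Psmd10 (-0.12) and Psme1 (0.12), with the same values when the block was added. The change with total-count scaling follows from its shift of the median of all genes. The cause of the other changes was not tested.

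Fits without 1 library assume that the lone library varies like the other group. They gave 27 to 30 upregulated standard subunits, 0 to 3 past both thresholds, medians of 0.71 to 0.81, 0 to 1 immune subunits lower, 7 to 9 accessory factors higher and 9 to 16 partner genes higher, with 9 without GSI replicate 1 or GSI replicate 2. Psmd10 ranged from -0.01 (without washout replicate 1) to 0.29, and Psme4 from -0.19 to 0.02 (without washout replicate 2).

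The replicate numbers name libraries and no source says that they pair them. The replicate 1 minus 2 differences of the conditions correlated at 0.497 across genes, and replicate 1 was the deeper library in both conditions. Under the replicate block the log2 fold change of Psmb10 was -0.23 (adjusted p = 0.0338 in edgeR), and no other member changed its call. For the ratios of the pairs, permutation within the replicate numbers cannot go below p = 0.5 (exact, two-sided). Its differences of -0.71, -0.80 and -1.04 equal the unpaired ones by arithmetic. Depth limited only Psma8 and Psmb11, which were too low to be tested.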
